A study of Arabidopsis thaliana with 6 samples.

Results

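The WT seedling transcriptome was described from the 3 arrays of wild type Arabidopsis, ecotype Columbia, out of 6 arrays in the series. The arrays of the 35S::OsHOX24 overexpression line were not used here. WT plants were raised for 10 days on MS medium in light for 14 h and darkness for 10 h a day, without stress treatment, and the RNA came from whole seedlings. Each array was an independent biological replicate, called WT replicate 1, 2 or 3 as labelled, and values below are always given in that order. Of 22810 probe sets on the array, the 64 control probe sets were left out and the remaining 22746 were all described.

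A seedling of this age is an autotrophic plant with expanded cotyledons and young leaves above a root system, and it carries no flowers, pollen or seeds. In green cells a large share of the transcripts serves photosynthesis, which draws on genes of the nucleus and of the plastid's own genome. Large plant gene families commonly hold a few members that are used in most vegetative cells beside many that are restricted to one cell type, organ or stress. The hour of harvest is not given in the sources used here. Because shoots and roots were mixed, fewer cells of a type and less RNA per cell cannot be told apart.

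Signals are MAS5 values on a log2 scale, so that 1 unit is a 2-fold difference, and the lowest values are listed at 0. A signal depends on the probes of its probe set as well as on the transcript, so a rank below is a rank of signal and not of transcript number. The 146 genes with several probe sets of their own show the size of this: their highest and lowest probe sets differed by a median of 3.13. For each gene the probe set with the highest mean over the WT arrays was used. A percentile gives the share of all probe sets below that mean, and the probe sets were divided by mean signal into 4 bands of equal size, called top, upper middle, lower middle and bottom. The platform table named a single gene for 13513 probe sets, which gave 13356 genes, and 1559 of these had a symbol other than a locus number. Many well-known families were therefore only partly measured, and the number of measured members is given with each.

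The 3 arrays had medians of 7.42, 7.29 and 7.24 and equal trimmed means. Pearson's r over all probe sets was 0.939 for replicates 1 and 2, 0.937 for replicates 1 and 3 and 0.928 for replicates 2 and 3. Above the median signal r was 0.911, 0.937 and 0.904 for the same pairs, so that both pairs with replicate 2 were the lower ones. These are correlations across probe sets of 1 array design, which are not independent replicates. The arrays listed 315, 511 and 163 probe sets at 0. The control for the 5′ and 3′ ends of the GAPDH transcript, in which a large gap is a sign of shortened RNA or cRNA, had 3′ minus 5′ differences of 3.25, 1.63 and 4.80. The same differences were 6.27, 5.37 and 6.84 for the actin control and 2.78, 2.76 and 3.58 for the ubiquitin control. All 3 controls thus had the largest gap on replicate 3, but no array was without one, the smallest being 1.63. The part of these gaps in the differences between arrays given below was not tested. The 25S rRNA control read 12.50, 13.44 and 13.88.

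The top band of the probe sets began at a mean of 9.09, the median lay at 7.31 and the bottom band ended at 4.59. The 100 highest probe sets made up 12.6%, 10.8% and 14.6% of the summed linear signal of the 3 arrays, and the 1000 highest made up 49.7%, 47.2% and 53.8%. In total 796 probe sets were listed at 0 on at least 1 array, all of them in the bottom band, and 23 on all 3. Genes with a symbol lay in the top band in 31.8% of cases and in the bottom band in 16.6%, whereas of all genes 20.6% lay in the top and 29.5% in the bottom band.

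**Figure D1:**
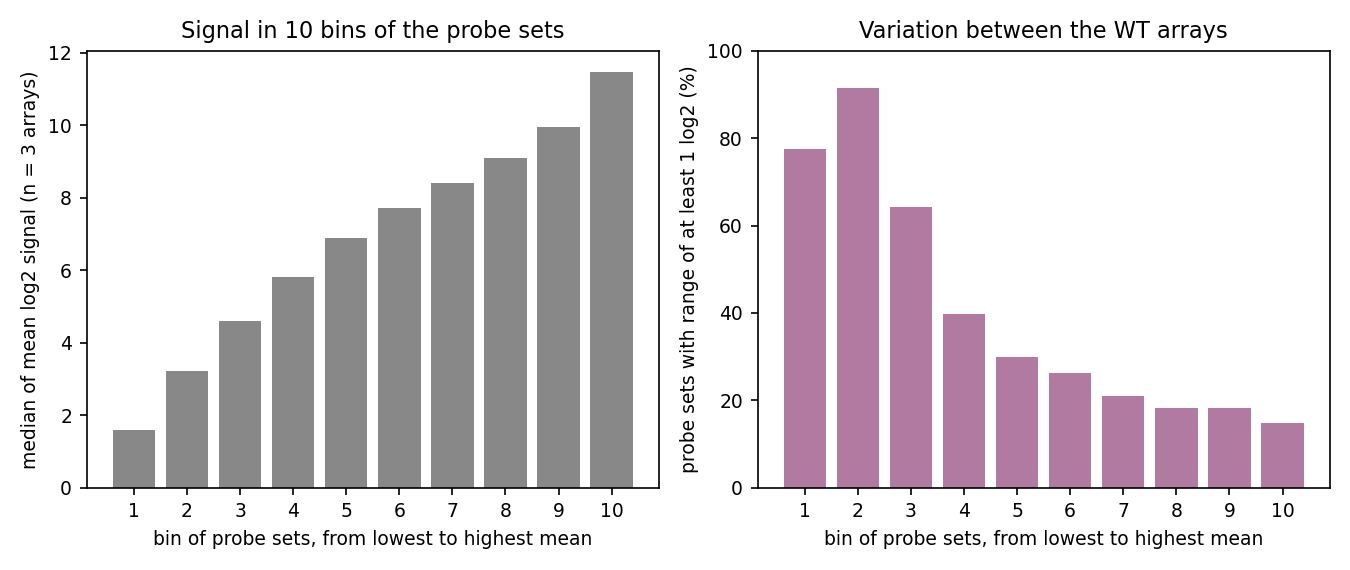
Median of the mean log2 signal (left) and percent of probe sets with a range of at least 1 log2 between the 3 WT arrays (right), in 10 bins of equal size of the 22746 probe sets from the lowest to the highest mean. The median signal climbs from 1.58 to 11.5 while the share of probe sets with such a range goes from 77.5% in the first bin and 91.5% in the next to 14.8% in the last.

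Plastid genes and nuclear photosynthesis genes were prominent among the named genes with the highest signals. Of the 15 genes with the highest mean signal, 5 lay in the plastid genome. The highest was atpE, the epsilon subunit of the plastid ATP synthase, at 15.01, 14.67 and 15.48 (mean 15.05 ± 0.41, SD, n = 3). It was followed by rps4, a protein of the plastid ribosome, at 14.75, 14.55 and 15.28. Next came atpB, the beta subunit of the same ATP synthase, at 14.49, 14.64 and 15.05. All 3 genes were highest on replicate 3. The photosystem I core gene psaB read 14.46, 14.23 and 14.98 and the photosystem II gene psbM read 14.19, 14.46 and 14.70. Of the nuclear genes, RCA, the Rubisco activase, stood at 14.28, 14.40 and 14.69 and LHCB4.1, a minor antenna protein of photosystem II, at 14.62, 13.91 and 14.48. CCL, a CCR-like gene, was the steadiest of the 15 at 14.44, 14.20 and 14.41. The other 7 were loci that carry only a locus number here, AT2G26500, AT1G52300, AT3G60245, AT5G20290, AT1G01100, AT5G15200 and AT2G45180, with means between 14.30 and 14.71.

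The nuclear photosynthesis lists lay almost wholly in the top band, which held 31.8% of genes with a symbol. All 4 measured photosystem subunits were there, with PSAE-1 of photosystem I at 14.38, 13.71 and 14.47, PSBY of photosystem II at 14.05, 13.76 and 13.71, PSBW of photosystem II at 13.85, 13.22 and 13.84 and PSAN of photosystem I, the lowest of them, at 13.56, 13.23 and 13.55. The 3 measured Calvin cycle genes were RCA, PRK, the phosphoribulokinase, at 13.63, 13.33 and 13.64 and SBPASE, the sedoheptulose bisphosphatase, at 12.98, 12.86 and 13.19. The lowest of these 7 genes, SBPASE, lay at percentile 98.4. None of the 7 had a range of 1, beside 16.7% of the probe sets of the top band, and for 7 genes a count of 0 is not far from that share. In photorespiration, the peroxisomal hydroxypyruvate reductase gene HPR read 13.46, 13.60 and 13.84 and AT1G11860 read 13.15, 13.37 and 13.10, while AT1G80380 read 11.04, 11.11 and 11.21. In chlorophyll synthesis, PORB, a light-dependent protochlorophyllide oxidoreductase, read 13.39, 11.91 and 12.65 and varied by 1.48. CHLM, the magnesium protoporphyrin methyltransferase, read 12.22, 12.38 and 12.44 and CHLI2, a subunit of the magnesium chelatase, 10.63, 10.45 and 10.41. HEMA2, a paralogue of the glutamyl-tRNA reductase gene, was the one member below the median, at 6.62, 5.85 and 6.75.

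Paralogues of single photosynthetic proteins were far apart in signal. The 3 genes for LHCB4 had means of 14.34 for LHCB4.1, 11.57 for LHCB4.2 and 9.48 for LHCB4.3, in the same order on every array. LHCB4.2 read 12.61, 10.83 and 11.27 and was the only one with a range above 1, replicate 1 being the highest. For the gamma subunit of the plastid ATP synthase, ATPC1 read 14.01, 13.76 and 14.16 and ATPC2 read 8.43, 8.71 and 9.0.

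The plastid genome was measured through 69 of its 129 annotated genes, 48 of which lay in the top band, 11 in the upper middle, 7 in the lower middle and 3 in the bottom band. Its genes lay at a median percentile of 92.6, and genes of the 5 nuclear chromosomes at 38.3 to 48.6. Within one protein complex the signals lay far apart. Among ATP synthase genes atpE and atpB were among the 15 highest genes, whereas atpA, which encodes the alpha subunit, read 6.01, 6.54 and 6.91. Among photosystem I genes psaB had a mean of 14.56 and psaA, which encodes its partner in the reaction centre, one of 6.90. The large Rubisco subunit rbcL read 12.29, 12.20 and 12.68 and the D1 protein gene psbA read 11.08, 11.58 and 12.33. The lowest plastid genes were petG, a small subunit of the cytochrome b6f complex, at 5.05, 1.25 and 3.40, ndhF of the NADH dehydrogenase-like complex at 3.11, 3.34 and 5.17 and rpoB of the plastid RNA polymerase at 4.70, 4.22 and 4.49. Since genes of one complex have different probes, these differences are differences of signal alone.

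Most organelle genes were highest on replicate 3. The plastid genes were highest on replicate 3 in 50 of 69 cases and lowest on replicate 2 in 35. The background for these counts was 33.1% of probe sets above the median that were highest on replicate 3 and 40.9% that were lowest on replicate 2. Both at once held for 33 of the 69 plastid genes, beside 21.6% of probe sets above the median and 24.9% of those of the top band. psaC, the iron-sulphur subunit of photosystem I, had the largest range of them at 11.11, 7.93 and 12.57. It was followed by psbT of photosystem II at 9.52, 6.87 and 9.61, ycf4, a photosystem I assembly factor, at 8.72, 7.63 and 10.14 and petL of the cytochrome b6f complex at 9.57, 7.95 and 10.33. Of the 59 plastid genes above the median, 25 had a range of at least 1, where the background was 19.7%. Some went the other way: psaJ of photosystem I read 11.42, 11.54 and 10.24 and psbE of photosystem II 11.45, 11.76 and 10.82, both lowest on replicate 3.

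A further 16 probe sets carry names used for genes of the mitochondrial genome, and these lay much lower, at a median percentile of 37.4. The highest was ccb382, a cytochrome c maturation gene, at 10.81, 11.28 and 11.25, and the cytochrome oxidase gene cox1 read 9.01, 8.59 and 10.38. The NADH dehydrogenase gene nad4 read 8.97, 8.65 and 10.23, and matR was at 0.00, 0.80 and 1.89. They were highest on replicate 3 in 14 of 16 cases, and 12 of the 16 had a mean below the median, where 38.4% of probe sets were highest on that array. Replicate 3 also had the highest 25S rRNA control and the largest GAPDH 3′ minus 5′ difference. The part of these in the organelle result was not tested. Under quantile normalization of the 3 arrays, 45 of the 69 plastid and 13 of the 16 mitochondrial genes were still highest on replicate 3.

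**Figure D2:**
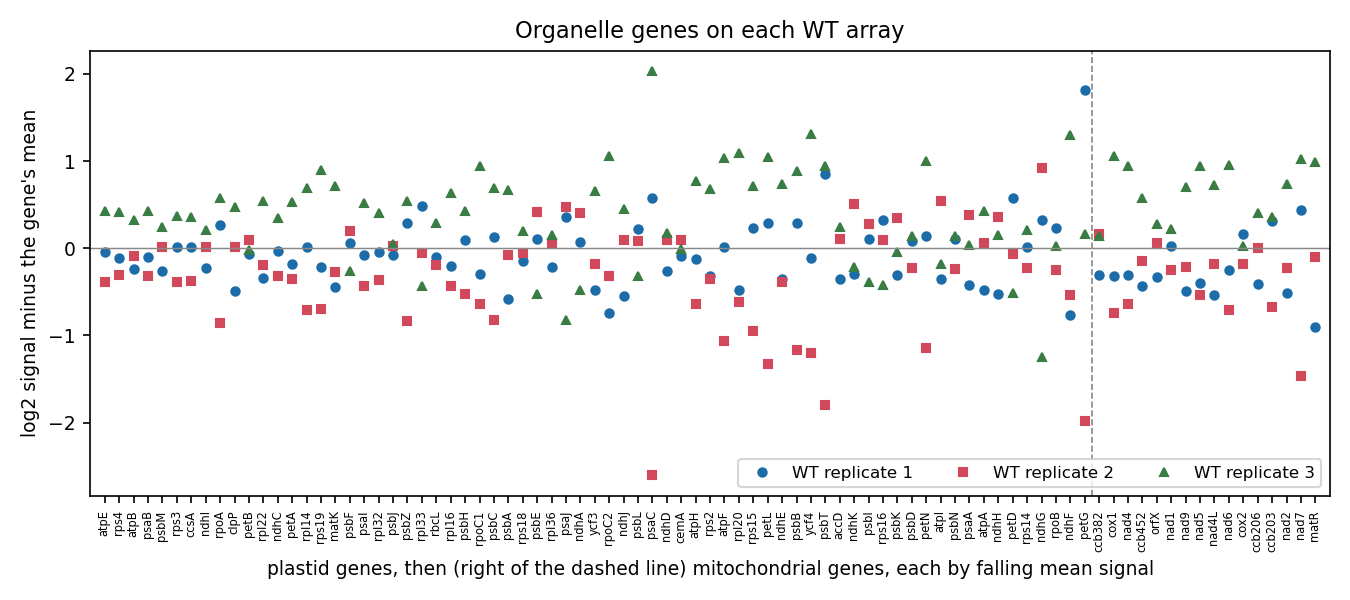
Log2 signal of each plastid gene (69, left of the dashed line) and mitochondrial gene (16, right) on each WT array, minus the gene's mean over the 3 arrays, ordered by falling mean. Green triangles of replicate 3 lie above the other arrays for 50 of the plastid and 14 of the mitochondrial genes, and psaC shows the largest spread, 4.64 log2.

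A pair of leaf markers was high, other leaf and root markers were lower, and the few measured flower, pollen and seed markers lay in the bottom band. Only 1 of 12 listed flower genes, 2 of 9 pollen genes and 1 of 19 seed genes were measured. The bottom band held 16.6% of genes with a symbol and 29.5% of all genes, and so few markers cannot show a departure from these shares. The stomatal gene MUTE and the root hair gene EXPA7 lay in the bottom band too. ACT11, a reproductive actin gene, and TUA1, a pollen tubulin gene, are outside these marker lists and had higher signals. STOMAGEN, the mesophyll peptide that promotes stomata formation, read 11.84, 11.41 and 12.20 and SWEET11, a sucrose exporter of the leaf phloem, 11.71, 12.39 and 11.64, both in the top band. The bHLH factors of the stomatal lineage were lower. FMA, which acts last in that lineage, read 6.35, 7.47 and 6.28, SPCH, which starts it, 6.55, 4.71 and 3.60 and MUTE, which acts between them, 4.4, 5.69 and 2.38. In the root, the root hair expansins EXPA18 and EXPA7 read 6.20, 6.0 and 5.64 and 2.86, 5.47 and 3.28. Genes of single small cell groups lay in the bottom band or at its edge, with TRY, a trichome patterning factor, at 5.69, 4.61 and 3.51 and CLV3, the shoot stem cell peptide, at 3.49, 2.38 and 2.21. Of markers of organs that a seedling lacks, the anther gene SPL read 2.01, 1.0 and 2.62, the pollen receptor kinase gene ANX1 4.25, 4.37 and 1.66, the male gamete histone gene MGH3 1.55, 1.67 and 1.55 and the seed coat gene BAN 2.12, 1.41 and 1.36. FD, the partner of the floral signal in the shoot apex, read 5.16, 4.38 and 5.11. No gene of the lists for endodermis and stele, root tip, photoreceptors, aquaporins or cellulose synthases was measured under these names.

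**Figure D3:**
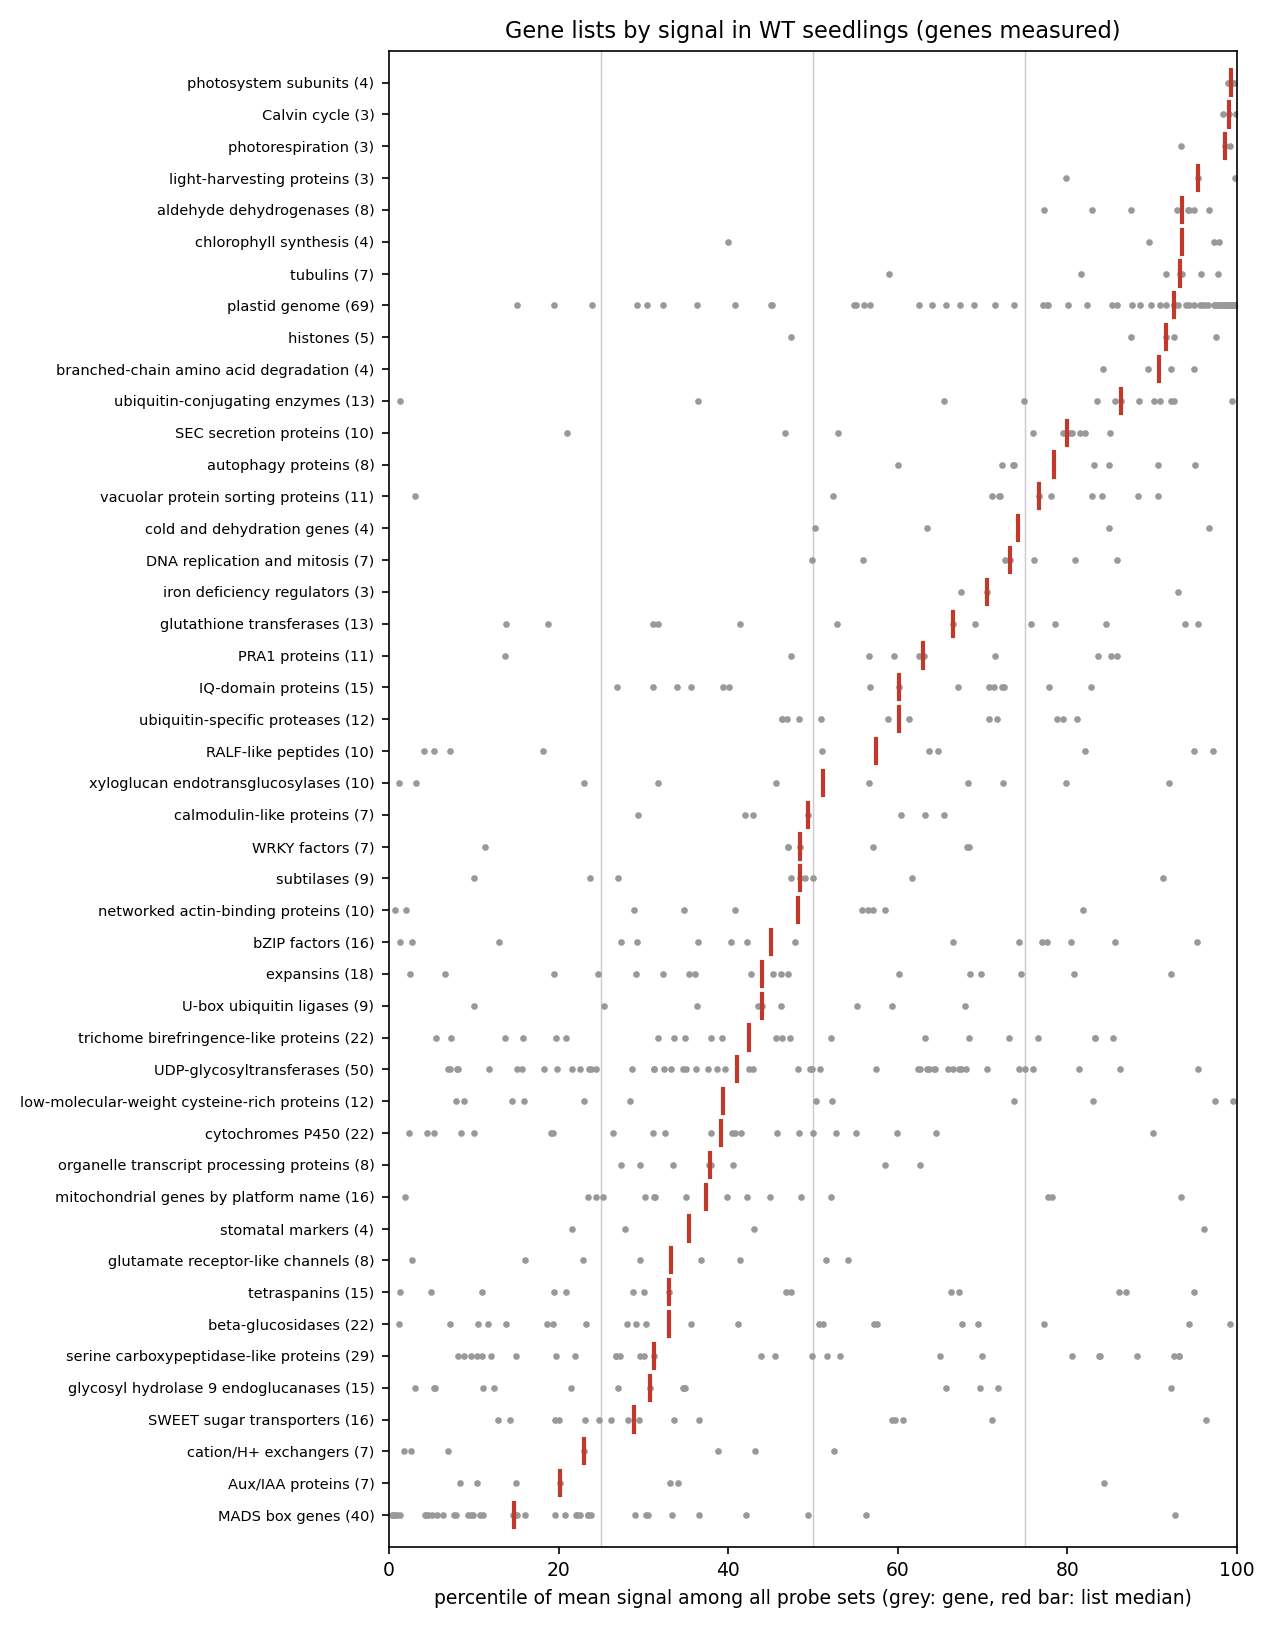
Percentile of the mean signal of each measured gene (grey points) and the median of its list (red bar) among all 22746 probe sets, for lists with at least 3 measured genes, with the number of genes in brackets and lines at the limits of the bands. Photosystem subunits stand at the top with a median percentile of 99.3 and MADS box genes at the bottom with 14.8.

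Aldehyde dehydrogenases and tubulins lay high, beside 31.8% of genes with a symbol in the top band. All 8 measured aldehyde dehydrogenases were in the top band, from ALDH11A3, a cytosolic glyceraldehyde phosphate dehydrogenase, at 11.91, 12.08 and 12.12 down to ALDH22A1 at 8.93, 9.15 and 9.67. None of the 8 had a range of 1, beside 16.7% of the probe sets of the top band, which is not far from it for so few genes. Of 7 tubulins 6 were in the top band, with TUA6 at 12.71, 12.52 and 12.42, and the lowest was TUA1, known as a pollen tubulin, at 7.42, 8.35 and 8.21. The histone H2B genes HTB4, HTB11, HTB1 and HTB2 had means from 10.23 to 12.44, and HTR12, the centromeric histone H3, read 7.20, 6.80 and 7.30. The 2 measured actins were the reproductive forms, ACT11 at 7.06, 7.35 and 6.62 and ACT12 at 0.17, 0.81 and 4.26. Of the reference genes commonly used in real-time PCR, GAPC2, a cytosolic glyceraldehyde phosphate dehydrogenase, read 13.66, 14.07 and 14.10 and AT4G34270 read 9.08, 9.10 and 9.30.

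Families of protein turnover and membrane traffic differed in level. Of all genes with a symbol 31.8% lay in the top band and 16.6% in the bottom band. Of 13 ubiquitin-conjugating enzymes 9 lay in the top band, led by UBC28 at 13.48, 13.58 and 14.40 and UBC30 at 10.96, 10.98 and 11.00, whereas UBC31 was near the floor at 1.03, 0.51 and 0.55. The 12 ubiquitin-specific proteases, which remove ubiquitin, had a narrow spread of means from 7.01 to 9.60, with 3 in the top band and none in the bottom band. Of the U-box ubiquitin ligases, none of 9 lay in the top band. Among vacuolar protein sorting proteins, most of them subunits of the ESCRT complexes, 6 of 11 were in the top band. Here VPS24.1 read 9.60, 9.14 and 9.20 and its paralogue VPS24.2 0.68, 0.86 and 2.02. Of the 10 SEC proteins of secretion 7 were in the top band. The exocyst subunit SEC5A read 9.69, 9.43 and 9.47 and its paralogue SEC5B 4.2, 3.63 and 4.44, while SEC15A and SEC15B had means of 7.54 and 9.45.

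Other families reached from strong signals to near the floor. For comparison, 20.6% of all genes lay in the top band and 29.5% in the bottom band. The families were picked by name from genes with a symbol, and of these 31.8% lay in the top and 16.6% in the bottom band. The UDP-glycosyltransferases, which attach sugars to hormones and secondary metabolites, were measured through 50 genes, of which 5 lay in the top band and 14 in the bottom band. The highest was UGT87A2 at 11.20, 11.92 and 11.66, followed by UGT88A1 at 9.91, 10.06 and 10.27. The lowest were UGT73C2 at 0.00, 1.42 and 4.59 and UGT84B2 at 2.06, 3.10 and 0.68. Among beta-glucosidases PYK10, the abundant enzyme of ER bodies, read 13.94, 13.65 and 13.43 and BGLU44 read 12.21, 11.09 and 10.72, but 8 of 22 were in the bottom band, with BGLU32 at 1.04, 0.86 and 0.00. The serine carboxypeptidase-like proteins had 7 of 29 members in the top band, led by scpl35 at 11.70, 10.57 and 11.00 and SCPL49 at 11.56, 11.13 and 10.55, and 9 in the bottom band. Of the trichome birefringence-like proteins, which acetylate wall polysaccharides, TBL25 was the highest at 9.54, 10.37 and 10.04 and TBL15 the lowest at 0.17, 1.92 and 2.95. Cytochromes P450 had a single member of 22 in the top band, CYP71B6, at 10.18, 10.86 and 10.62.

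Wall-loosening and transport families also covered a wide span of signals. Among 18 expansins, which loosen cell walls, EXLA1 read 11.61, 9.90 and 11.15 and EXPA15 10.18, 9.81 and 8.65, while EXPA24 was lowest at 0.36, 0.98 and 1.83. Of 10 xyloglucan endotransglucosylases EXGT-A3 had the highest mean at 10.84, and XTH21 and XTH26 had means of 1.22 and 0.61. The SWEET sugar transporters, measured almost completely with 16 of 17, had SWEET11 alone in the top band. SWEET1, SWEET17, SWEET16 and SWEET2 formed a middle group with means from 8.01 to 8.81, and the remaining 11 had means from 2.91 to 6.0. SWEET9, the nectary transporter, was the lowest at 3.15, 4.56 and 1.03. Glutathione transferases, with 5 of 13 in the top band and 2 in the bottom band, were led by GSTU20 at 11.90, 11.82 and 11.05 and GSTL3 at 11.57, 11.41 and 10.72. The secreted defensin genes LCR69 and LCR68 read 14.20, 13.66 and 14.20 and 12.28, 12.86 and 12.07, and LCR59 was at 4.3, 1.02 and 1.05. RALFL34, a RALF signalling peptide, read 12.32, 12.07 and 12.37 and RALFL33 11.34, 11.74 and 11.33, whereas 4 of 10 RALF-like genes were in the bottom band.

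Regulator families differed in level. Of 40 MADS box genes, a family of floral, seed and root regulators, 31 were in the bottom band and 9 were listed at 0 on at least 1 array. Their median percentile was 14.8, against 45.0 over all genes. Above the median stood AGL26 at 10.81, 10.91 and 11.25 and AGL16 at 8.04, 7.37 and 7.99, and the lowest were AGL104, a pollen regulator, at 0.06, 0.00 and 0.74 and AGL67 at 0.00, 0.00 and 0.59. Of 7 Aux/IAA genes, repressors of auxin responses, IAA18 read 9.69, 10.45 and 9.51 and the other 6 were below the median, with IAA31 at 0.49, 4.09 and 2.05. The bZIP factors had 5 of 16 members in the top band and a median percentile of 45.1, and reached from BZIP53 at 11.86, 11.41 and 11.43 to bZIP48 at 0.00, 0.85 and 1.25. The membrane-bound factors of the endoplasmic reticulum stress response, BZIP60, BZIP28 and BZIP17, had means of 10.01, 9.24 and 8.50. The 7 WRKY factors had no member in the top band and 1 in the bottom band, with a median percentile of 48.5, and WRKY20 led them at 8.84, 8.58 and 8.43. Glutamate receptor-like channels and cation/H+ exchangers also had no member in the top band, with 8 and 7 measured genes. Of genes with a symbol 31.8% lay in the top band, and lists this small cannot show that a family departs from that share.

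The WT arrays differed from each other in a substantial share of genes. Over all probe sets 9127, or 40.1%, had a range of at least 1 between the highest and the lowest of the 3 arrays. Variation was largest in weak signals, where 82.0% of the bottom band reached that range, against 16.7% of the top band. Above the median signal 2236 of 11373 probe sets did so (19.7%), and 281 (2.47%) had a range of at least 2. The median SD above the median signal was 0.31. With a single group there was no contrast to test, and the variation is given as a description.

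The genes with the largest ranges above the median signal were COR15A and COR15B, which encode stromal proteins of cold acclimation. COR15A read 10.84, 5.20 and 5.95 and COR15B read 11.15, 6.23 and 7.52, so that replicate 1 was 4.89 and 3.63 above the next array. GI, a clock gene that peaks late in the day, was likewise highest on replicate 1 at 10.36, 7.77 and 6.63. Not all cold-regulated genes did this. The dehydrin gene COR47 read 11.87, 12.42 and 11.81, with replicate 2 the highest, and the dehydrin gene LTI30 read 9.90, 10.88 and 9.02. Replicate 1 was also the highest for AT3G28220 at 10.91, 7.50 and 6.47 and for AT1G80130 at 9.89, 6.38 and 6.16. Some defensin genes were highest on replicate 1 too, with the jasmonate-responsive PDF1.2 at 8.21, 6.72 and 7.07, its paralogue PDF1.2b at 8.79, 6.76 and 7.27 and PDF2.1 at 11.05, 9.68 and 8.54. Of the low-molecular-weight cysteine-rich proteins, which hold PDF1.2 and PDF2.1, 4 of 12 were highest on replicate 1, beside 34.0% of probe sets above the median. WRKY53, a regulator of senescence and defence, read 8.10, 6.50 and 6.61, just below the median. STZ, a zinc finger repressor of stress responses, read 10.26, 9.44 and 10.26 and did not reach a range of 1.

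**Figure D4:**
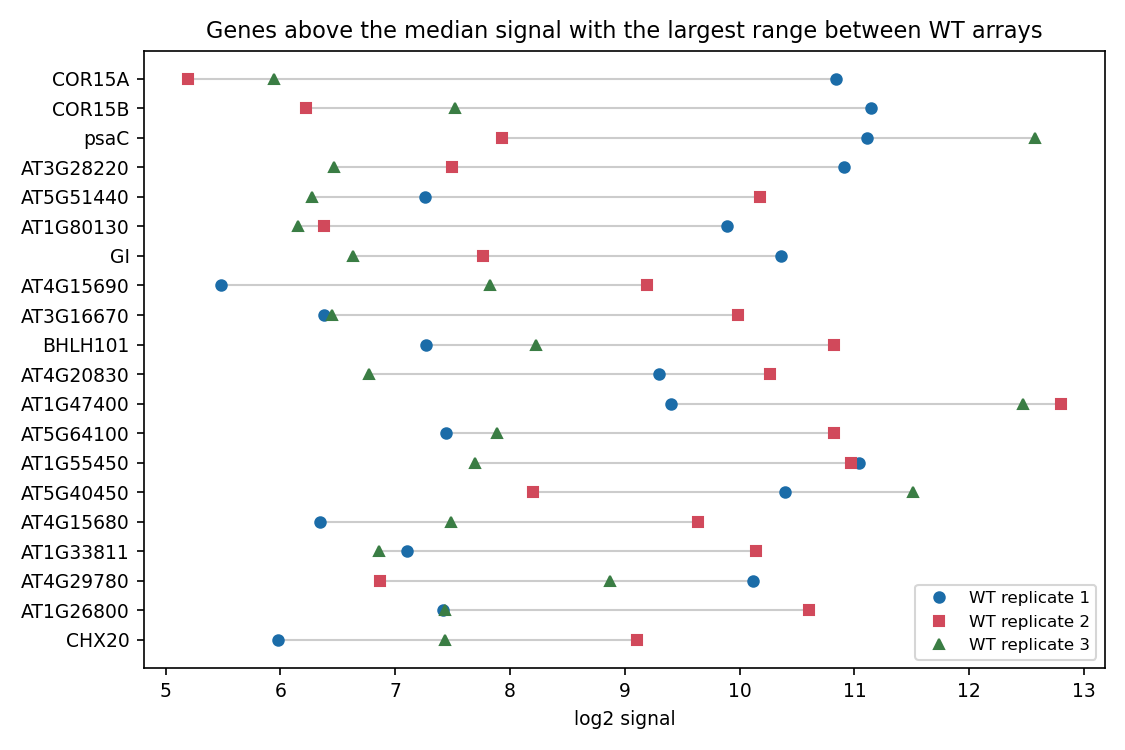
Log2 signal on each WT array of the 20 genes with the largest range among genes above the median signal, ordered by range. COR15A at the top spans 5.64 log2 and CHX20 at the bottom 3.12, and replicate 1 stands alone at the high end for COR15A, COR15B, AT3G28220, AT1G80130 and GI.

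The array that stood apart, meaning the one farther from the middle value, differed from gene to gene. Among the 2236 variable probe sets above the median it was replicate 2 in 48.9% of cases (26.2% high and 22.7% low), replicate 3 in 31.2% (9.84% high and 21.4% low) and replicate 1 in 19.9% (12.4% high and 7.51% low). Among the 281 with a range of at least 2, replicate 2 high made up 37.0% and replicate 3 low 23.1%. Centring each array on its median moved these shares: replicate 3 low fell to 14.5% and replicate 3 high rose to 16.1%. The genes named for each class in the next paragraphs, other than the 20 with the largest ranges and the list members, were chosen after their values were seen.

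**Figure D5:**
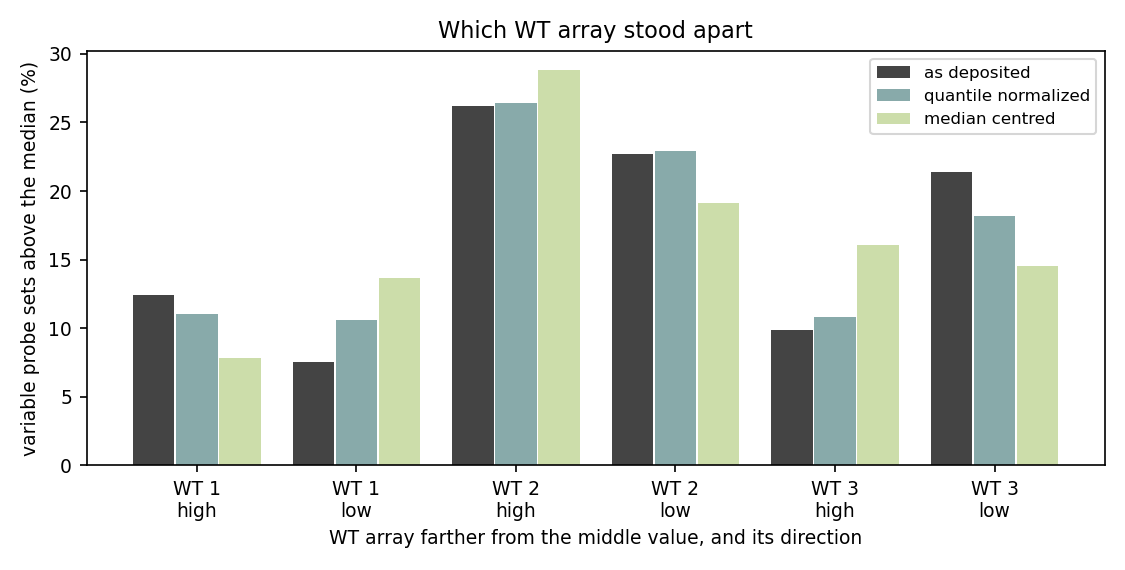
Share of the variable probe sets above the median (range of at least 1 log2) in which each WT array was the one farther from the middle value, split by direction, for the values as deposited, after quantile normalization and after median centring. Replicate 2 takes the largest share in each of the 3, with 26.2% high and 22.7% low as deposited.

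Genes of the iron deficiency response and of branched-chain amino acid degradation were mostly lowest on replicate 1. Both lists were drawn up after such genes had been seen. BHLH101, a factor of the iron deficiency response, read 7.27, 10.82 and 8.23, and PYE, a repressor in the same response, 7.47, 9.14 and 9.07. ILR3, their interaction partner, read 10.76, 11.14 and 11.27, and all 3 measured genes of that list were lowest on replicate 1, beside 25.3% of probe sets above the median. The unnamed locus AT1G47400 had a range of 3.40 in the same sense, at 9.40, 12.80 and 12.47. In branched-chain amino acid degradation MCCA, a subunit of methylcrotonyl-CoA carboxylase, read 9.36, 10.78 and 11.30, IVD, the isovaleryl-CoA dehydrogenase, 9.03, 10.50 and 10.09 and ALDH6B2, the methylmalonate semialdehyde dehydrogenase, 11.00, 11.94 and 11.43. MCCB, the other subunit of the carboxylase, read 10.61, 10.59 and 11.46 and was the one member of the 4 that was not lowest on replicate 1, against the same background. AKINBETA1, a subunit of the energy-sensing SnRK1 kinase, read 10.28, 11.64 and 11.81.

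Autophagy genes were also lowest on replicate 1. All 8 measured members were so, where the background was 25.3% of probe sets above the median. The count stayed at 8 under quantile normalization, with a background of 29.8%. Median centring lowers replicate 1 against the others, so it could not change the count, and there the background was 38.3%. This list was added after the WT values were seen. ATG8F, one of the small ubiquitin-like proteins that coat autophagosomes, read 10.98, 11.96 and 11.57, ATG8C 9.38, 10.31 and 10.11 and ATG8B 8.40, 9.46 and 9.09. ATG3, the enzyme that attaches ATG8 to lipid, read 8.66, 9.60 and 8.70. The differences were small, and 1 of the 8, ATG8B, had a range of 1. After median centring, which lowers replicate 1 against the others, 5 of the 8 did.

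Several transport and metabolic genes were highest on replicate 2. The hexose transporter gene SWEET1 read 7.97, 9.69 and 8.78, and the vacuolar transporter genes SWEET16 and SWEET2 read 7.46, 8.89 and 7.75 and 6.59, 9.06 and 8.38. In total 4 of the 5 SWEET genes above the median had a range of at least 1, beside 19.7% of probe sets above the median, the last of them being SWEET17 at 8.07, 8.65 and 7.55. The SWEET list was added after the WT values were seen. MGL, the methionine gamma-lyase, read 8.07, 9.45 and 7.20 and GTR2, a glucosinolate transporter, 8.35, 10.12 and 8.26. PPDK, the pyruvate phosphate dikinase, read 9.60, 11.24 and 10.30 and CHX20, an endomembrane cation exchanger of guard cells, 5.98, 9.10 and 7.43. SIS, a salt-induced serine-rich protein, read 8.03, 10.36 and 7.81.

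The measured genes of the replication and mitosis list were lowest on replicate 2. TOPII, the DNA topoisomerase II, read 9.72, 8.26 and 9.50, and the mitotic chromosome proteins 3xHMG-box1 and 3xHMG-box2 read 8.37, 6.63 and 8.33 and 10.53, 9.09 and 10.49. The Aurora kinase genes AUR1, AUR2 and AUR3 read 9.16, 8.56 and 9.15, 8.96, 8.59 and 9.19 and 7.27, 6.93 and 7.68, and PRL, a subunit of the replicative helicase, 9.91, 9.26 and 9.52. All 7 measured genes of the replication and mitosis list were lowest on replicate 2, against a background of 40.9%, also after both scalings. This list was also drawn up after such genes had been seen, so its count is no independent support. The histones were less uniform, with 3 of 5 measured genes lowest on replicate 2. Among other genes with the lowest value on replicate 2 were EXO, a growth-promoting extracellular protein, at 11.98, 10.22 and 11.71, EXLA1 with a range of 1.72, the allantoinase gene ALN at 8.65, 6.64 and 7.94 and the calmodulin-like gene CML38 at 8.62, 6.78 and 8.82.

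Most glutathione transferases were lowest on replicate 3. GSTU25 read 9.53, 9.39 and 6.57, GSTU26 7.69, 8.25 and 6.68 and GSTU22 8.60, 9.77 and 7.66. Of the 13 glutathione transferases 10 were lowest on replicate 3, beside 33.8% of probe sets above the median, though only 8 of the 13 lay above it. Among these 8, 4 had a range of at least 1, where the background was 19.7%. After median centring 8 of the 13 were lowest on replicate 3. As deposited, 8 of 10 xyloglucan endotransglucosylases, 25 of 50 UDP-glycosyltransferases and 8 of 40 MADS box genes were also lowest there. All 6 expansins above the median had a range of at least 1, against the same background, but not in one sense. EXPA4, EXPA15 and EXPB3 were low on replicate 3 at 9.0, 9.80 and 7.09, 10.18, 9.81 and 8.65 and 9.25, 9.21 and 7.72, EXPA8 was high on replicate 2 at 8.09, 10.21 and 8.86, and EXLA3 was high on replicate 3 at 7.97, 7.60 and 8.62. Of the 20 UDP-glycosyltransferases above the median 6 (30.0%) had a range of at least 1, which is not far from that background. UGT72E1, which acts on monolignols, read 8.27, 9.39 and 7.39 and UGT76C2, which glucosylates cytokinins, 7.62, 8.44 and 9.57. RR16, a cytokinin response regulator gene, was high on replicate 3 like UGT76C2, at 6.99, 7.32 and 8.46.

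Several lists had no member above the median with a range of 1, beside 19.7% of probe sets above the median. This held for the 8 ubiquitin-specific proteases above the median, the 9 IQ-domain proteins, which bind calmodulin, the 10 vacuolar protein sorting proteins, the 8 SEC proteins, the 8 aldehyde dehydrogenases and the 7 tubulins. Median centring gave 2 aldehyde dehydrogenases and 1 tubulin with a range of 1. With 7 to 10 genes above the median per list, a count of 0 is not far from that background. Smaller lists without such a member included the WRKY factors, xyloglucan endotransglucosylases, tetraspanins and glutamate receptor-like channels. Of the lists given with counts here, all but the tubulins were added after the WT values were seen. The genes with the smallest ranges above the median were AT1G21440 at 10.78, 10.78 and 10.78, AT2G24860 at 10.06, 10.08 and 10.08 and PPR596, a pentatricopeptide repeat protein, at 9.87, 9.86 and 9.88. AT3G28480 and AT5G56900 had means of 8.94 and 8.13 and ranges of 0.02 and 0.02.

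Variable genes that are neighbours on a chromosome often varied alike. Among 1106 variable nuclear genes above the median there were 47 pairs with no other protein-coding gene between them. In 18 of these pairs (38.3%) the same array stood apart in the same direction, whereas this held for 19.4% of all pairs of variable genes. COR15B and COR15A were such a pair. AT5G64100, AT5G64110 and AT5G64120 formed a run of 3 neighbours that were high on replicate 2, at 7.45, 10.82 and 7.89, 6.34, 9.25 and 6.50 and 8.50, 10.72 and 8.25. AT4G27652, AT4G27654 and AT4G27657 formed another that was high on replicate 3, at 10.00, 9.26 and 10.84, 7.94, 7.52 and 9.81 and 9.95, 9.41 and 10.92. GSTU25 and GSTU26 were both low on replicate 3. AT4G15680 and AT4G15690 counted as different, with replicate 2 the highest for both at 6.34, 9.64 and 7.49 and 5.49, 9.19 and 7.83. A probe set can also bind the transcript of a similar neighbouring copy, and the part of this was not tested.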

How the data were processed

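Transcript signals of the 3 WT arrays were taken from the table of the authors, who made the deposited log2 values with MAS5, for which the sources used here give no version, from biotin-labelled cRNA on Affymetrix 3′ expression arrays. The linear signals of each array have the same 2% trimmed mean, so a scaling is already included. The number of arrays limits the precision. Means, SDs, ranges and percentiles were computed with Python 3.11.15, pandas 2.3.3 and numpy 2.4.6 and checked on simulated data with 200 shifted probe sets. No test was made, since 1 group holds no contrast, and no column of the other genotype was used.

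Genes came from a platform table whose gene identifiers were looked up in RefSeq (assembly TAIR10.1), with a match for 13436 of 13513 probe sets with 1 gene. The 503 probe sets with several genes and the 8730 with none were described only in counts over all probe sets. A family holds genes whose RefSeq symbol or synonym fits its name. Members of all lists, and the rule for naming genes, were chosen with earlier results of these data known, and 28 of the 83 lists, most of them families with at least 7 measured genes, were added after the WT values were seen. Genes were named when they were among the 15 highest signals, the 20 largest or 5 smallest ranges above the median signal, the 4 highest or 2 lowest or 3 most variable of a list, or markers. Alternatives were quantile normalization, median centring, log2(signal + 16), ranking among named genes, the mean of a gene's probe sets, a percentile filter, leaving out cross-hybridizing probe sets and leaving out each array. Promoter motifs and protein identities were not analysed here.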

Additional observations from a re-analysis of the deposited data

How the results depend on the processing

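The 2236 variable probe sets above the median became 2166 with quantile normalization, 2296 with median centring, 2028 with log2(signal + 16) and 2083 without cross-hybridizing probe sets, and fell to between 750 and 1418 with 1 array left out, the lowest being without replicate 2. The range of 2 arrays is smaller than that of 3 by construction. The 9127 over all probe sets became 4937 with log2(signal + 16), 2915 among probe sets above the 40th percentile, and 4921 to 6125 with 1 array left out. The share of variable probe sets above the median in which an array stood apart moved from 12.4% to 11.0% for replicate 1 high, from 7.51% to 10.6% for replicate 1 low and from 21.4% to 18.2% for replicate 3 low under quantile normalization. Under median centring, which shifted the arrays by -0.10, 0.03 and 0.07, the shares were 7.80% and 13.6% for replicate 1 high and low, 28.8% and 19.2% for replicate 2, and 16.1% and 14.5% for replicate 3. These shares could not be computed with 2 arrays. Of 414 list medians recomputed, 371 moved by less than the spread between arrays. Of the 43 that moved more, 31 did so when genes were ranked among named genes in place of all probe sets, an alternative under which 15 of 46 list medians stayed within that spread. In addition, 317 of 322 counts of members in the top band stayed within 1.5 times, but only 238 of 322 counts of variable members did. Ranges of the 20 most variable genes moved by less than 1 SD in 120 of 140 cases, the others all with 1 array left out. No paired analysis was possible because only 1 group was used. Low signals limit the description too, since values near 0 have no order.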

Other observations

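Tetraspanins, membrane proteins of the cell surface and of plasmodesmata, had 3 of 15 measured members in the top band and 5 in the bottom band. TET8 read 11.78, 11.30 and 11.28, TET3 10.07, 10.67 and 9.73 and TET7 10.05, 10.06 and 10.10 on WT replicates 1, 2 and 3, while TET16 and TET15 were near the floor at 1.88, 0.06 and 2.81 and 0.56, 0.36 and 1.06. None of the 5 above the median had a range of 1, beside 19.7% of probe sets above the median. The glycosyl hydrolase 9 endoglucanases, which act on wall glucans, had GH9B7 alone of 15 in the top band, at 10.99, 10.60 and 11.10. GH9B13 was high on replicate 1 at 9.62, 8.25 and 8.71 and GH9C2 low on replicate 3 at 8.59, 9.17 and 7.58. The 8 organelle transcript processing proteins, which edit or splice organelle RNA, had means from 4.89 to 8.24, none of them in the top or the bottom band. Of genes with a symbol 31.8% lay in the top and 16.6% in the bottom band.

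Of the U-box ubiquitin ligases 2 of 3 above the median had a range of at least 1, beside 19.7% of probe sets above the median. These were PUB26 at 8.28, 7.26 and 7.62 and PUB49 at 9.12, 8.11 and 8.55, both highest on replicate 1. Under quantile normalization their ranges were 0.93 and 0.97. This list was added after the WT values were seen. Below the median, the stress-induced pair PUB22 and PUB23 read 7.02, 7.18 and 6.18 and 7.23, 7.27 and 5.76, both lowest on replicate 3. PUB19, also below it, read 2.72, 7.07 and 4.1, with replicate 2 far above the others. Among subtilases SBT1.3 read 11.05, 10.44 and 10.67, and S1P, the site-specific protease that releases membrane-bound transcription factors, 8.08, 7.95 and 8.47. SBT3.3 read 5.73, 4.60 and 4.19 and SBT3.5 7.95, 6.54 and 6.81, both highest on replicate 1.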
